A study of Mus musculus with 6 samples.

Results

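The proteasome genes described here are the entries of the study's gene-level table whose symbols begin with Psma, Psmb, Psmc, Psmd, Psme, Psmf or Psmg followed by a digit. This rule used names alone and gave 49 of the 11242 entries. By their known roles, 7 encode the alpha ring of the 20S core, 7 the constitutive beta ring, 3 the inducible beta subunits and 1 the thymic beta subunit. A further 6 encode the ATPases of the 19S base, 3 its other subunits and 8 the lid, while 7 are assembly chaperones, 4 are PA28 activator genes, and Psme4 and Psmf1 encode the activator PA200 and the regulator PI31. The last, Psmc3ip, matches by name only, since its protein acts in meiotic recombination. Of the genes in the annotation with such names, Psma8 and 4 pseudogenes are outside that table, and none of them reached more than 8 counts in a sample.

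The study deleted Cul5, the scaffold of a family of cullin-RING ubiquitin ligases, in T cells, and the sequencing compared gene expression with and without it in cells cultured toward the Th9 fate. Naive CD4+ T cells of C57BL/6 mice, 8 to 10 weeks old in the study's text and with spleen given as the source, were activated for 48 h on anti-CD3 (2 µg/ml) and anti-CD28 (1 µg/ml) in the presence of IL-4 (20 ng/ml), TGF-β (2.5 ng/ml) and anti-IFN-γ (10 µg/ml). The 3 Cul5 cKO samples carried Cul5fl/fl, with exons 9 to 11 flanked by loxP sites, together with the CD4-Cre transgene, which acts in all T cells from the thymus onward, and the 3 WT samples were littermate Cul5fl/fl cells without Cre. The labels do not say whether replicates came from separate animals, so that p-values measure only the spread between these samples, which may be technical.

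The 26S proteasome degrades proteins marked with ubiquitin. Its 20S core is a barrel of alpha rings, which gate the entrance, and beta rings, which hold the peptidase sites, and its 19S regulator binds ubiquitin chains, removes them and unfolds the substrate. In lymphocytes and in cells exposed to interferon-γ, the inducible subunits Psmb8, Psmb9 and Psmb10 can replace Psmb5, Psmb6 and Psmb7 to form the immunoproteasome, which favours peptides for MHC class I. Cells make the structural subunits in balanced amounts, and their genes are known to respond together to the transcription factor Nfe2l1 when proteasome capacity is short.

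Counts estimated by kallisto added up to between 3944803, in WT replicate 3, and 23454552 per sample, and levels are given as CPM, counts scaled to a common library size with TMM factors, or as TPM, which also divides by length. Cul5 itself was at 64.4, 69.3 and 65.0 CPM in WT replicates 1, 2 and 3 and at 10.6, 14.2 and 13.1 CPM in Cul5 cKO replicates 1, 2 and 3 (log2 fold change -2.39, adjusted p = 0.000992 from the quasi-likelihood test of edgeR, adjusted by Benjamini-Hochberg). Of 8 T cell markers, all were present and all had a log2 fold change below 0, their summed level was 1786 to 1915 CPM in WT and 1580 to 1708 CPM in Cul5 cKO, and Cd28 fell (log2 fold change -1.17, adjusted p = 0.0205). The summed level of 4 Th9 markers was 1188 to 1550 CPM in WT and 1757 to 2561 CPM in Cul5 cKO. They did not move alike, since Il9, Batf and Irf4 had log2 fold changes of 1.41, 0.39 and 0.35, with overlap for Irf4. Gata3 had one of -0.16, with every Cul5 cKO sample below every WT sample. Markers of other cells were low, with NK markers at 4.65 to 9.91 and 6.43 to 13.4 CPM, CD8 markers at 5.76 to 6.53 and 4.30 to 11.6 CPM, myeloid and dendritic markers at 4.44 to 8.998 and 4.04 to 19.7 CPM and erythroid markers at 0 to 0.811 and 0.978 to 2.19 CPM in WT and Cul5 cKO, and Ncr1 was at 0 in every sample. The sum of 6 B cell markers was 17.2 to 23.7 CPM in WT and 14.5 to 55.6 CPM in Cul5 cKO, with its highest value in Cul5 cKO replicate 3. The part of these shifts in the values below was not tested, and in bulk RNA fewer cells of a type and less RNA per cell cannot be told apart.

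The proteasome genes were well expressed in these cultures. In WT samples, mean levels per length of the 31 alpha, constitutive beta, base and lid genes lay between 67.5 TPM for Psmc2 and 383 TPM for Psmb3, a span of 5.67-fold. Constitutive beta genes ranged from 153 to 383 TPM, alpha genes from 141 to 270 TPM, and base and lid genes from 67.5 to 289 TPM. The highest of all 49 was the inducible Psmb8, at 421 TPM ± 29.0 (SD, n = 3) in WT and 472 TPM ± 31.05 in Cul5 cKO, although 43.3% to 47.7% of its counts per sample were in transcripts annotated as retained introns, and with protein-coding transcripts alone it was at 281 TPM in WT, behind Psmb3 and Psmb2. The other inducible genes Psmb9 and Psmb10 stood at 73.2 and 71.2 TPM in WT. Assembly chaperones were lower, from 9.01 TPM for Psmd10 to 94.2 TPM for Psmg1. Psmb11, whose product belongs to the proteasome of thymic epithelium, was at 0.337 TPM.

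Fitted levels of most proteasome genes were slightly higher in Cul5 cKO, and none of the 49 genes passed the adjusted threshold. The fitted log2 fold change was above 0 for 44 of the 49 genes (89.8%), against 48.8% of the 12925 genes tested, and its median was 0.14 against -0.01 over all genes. For the 31 alpha, constitutive beta, base and lid genes it was above 0 in 31 (in 26 on the log2 TPM scales), with a median of 0.14, a range of 0.02 to 0.52 and a median difference between group means of 10.6%. By edgeR's quasi-likelihood test at an adjusted p under 0.05, 0 of 49 genes were called higher, where 0.611% of all genes were, and 0 lower, where 0.418% were; the lowest adjusted p was 0.0872, for Psmd7. At an unadjusted p under 0.05, 15 genes were higher (30.6% of the members, 10.9% of all genes) and 1 was lower (2.04%, against 10.4%). In CPM, every Cul5 cKO sample lay above every WT sample for 20 genes (40.8%, against 14.0% of all genes) and below for 1 gene (2.04%, against 13.5%). Subunits of a complex are not independent replicates, and these shares describe the 49 genes beside the background without a test of the difference. With DESeq2 in place of edgeR, 1 gene, Psmd7, was called higher (2.04%), against 2.79% of all genes.

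**Figure D1:**
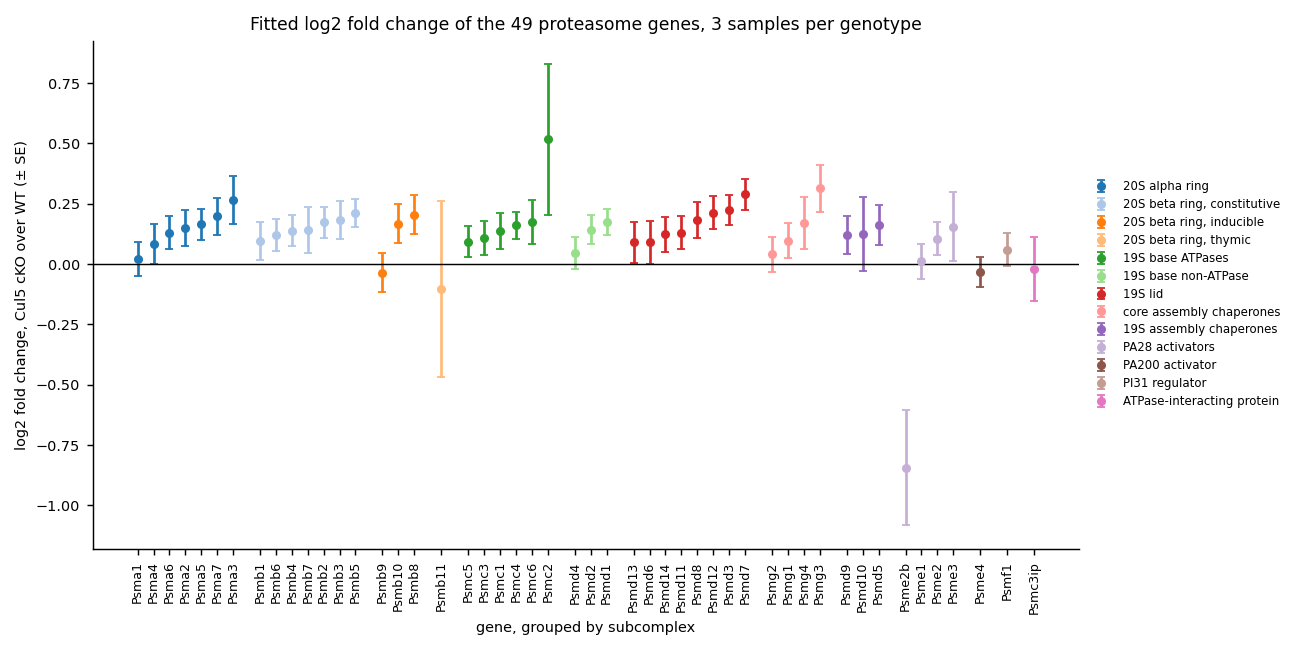
Fitted log2 fold change of Cul5 cKO over WT (vertical axis, edgeR) for each of the 49 genes (horizontal axis, grouped by subcomplex), with bars for its standard error, from 3 samples per genotype. The alpha, constitutive beta, base and lid genes lie above 0, between 0.02 and 0.52, in this fit (Psma1, Psmc3, Psmc6, Psmd11 and Psmd13 lie below 0 on the log2 TPM scales), and Psme2b lies lowest, at -0.84.

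The median of the set stayed above 0 under each scaling, although its size and the direction of single genes did not hold under all of them. With library size alone, 41 of the 49 genes were above 0 and the median was 0.09 where that of all genes moved to -0.05. With limma on log2(TPM + 1), 37 were above 0, with a median of 0.09 against -0.05. In the study's own gene-level table of log2 CPM, 43 were above 0, with a median of 0.15 against -0.00031 for all genes in it. Of the 31 structural genes, Psma1 was below 0 with library size alone, Psmc6, Psmd11 and Psmd13 with counts scaled from TPM, Psma1, Psmd11 and Psmd13 in the gene-level table, and Psma1, Psmc3, Psmc6, Psmd11 and Psmd13 on the log2 TPM scales.

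The replicates were not alike. The summed level of the 49 genes was 6790, 6456 and 6287 CPM in WT replicates 1, 2 and 3 and 7058, 7115 and 7489 CPM in Cul5 cKO replicates 1, 2 and 3, so that the groups did not overlap and WT replicate 1 came nearest to the Cul5 cKO samples. Relative to the WT mean on the log2 scale, the median gene stood at 0.09, -0.02 and -0.05 in the WT samples and at 0.12, 0.14 and 0.17 in the Cul5 cKO samples, while the median of all genes stayed between -0.01 and 0.01 in each. WT replicate 1 was the highest WT sample for 36 of the 49 genes. Between samples that share a replicate number, Cul5 cKO was higher for 33, 44 and 44 genes for numbers 1, 2 and 3, with median log2 differences of 0.03, 0.15 and 0.22.

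**Figure D2:**
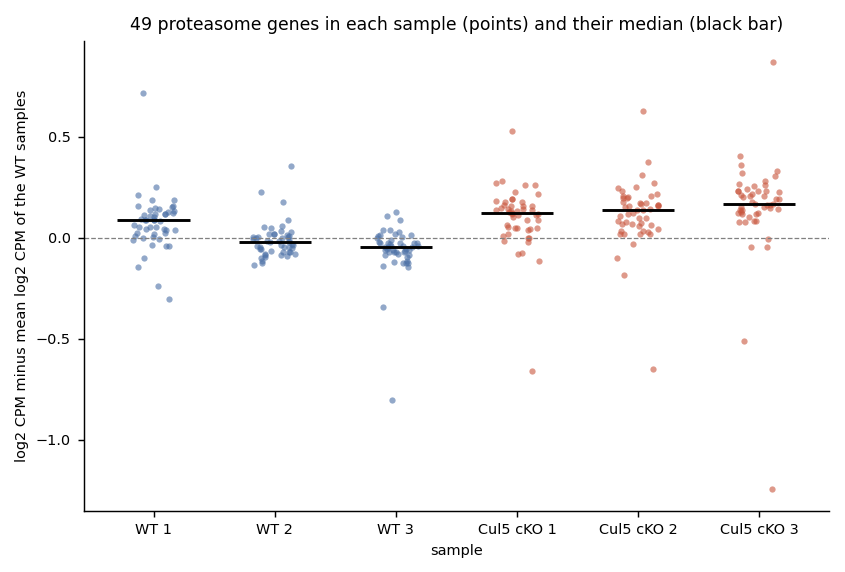
Log2 CPM of each of the 49 genes minus its mean over the 3 WT samples (vertical axis) in each of the 6 samples (horizontal axis), with a black bar for the median gene. The medians are 0.09, -0.02 and -0.05 in WT and 0.12, 0.14 and 0.17 in Cul5 cKO, with WT replicate 1 nearest to the Cul5 cKO samples.

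The number of calls differed with the replicates used. In replicates 2 and 3 alone, 7 genes were called higher at an adjusted p under 0.05 by edgeR (14.3%, against 4.38% of all genes in that fit) and 0 lower, and they were Psma3, Psma7, Psmb3, Psmb8, Psmc6, Psmd12 and Psmd7. In that fit 29 genes were higher at an unadjusted p under 0.05 (59.2%, against 16.2%), and the median log2 fold change was 0.18. In CPM, both Cul5 cKO samples of these replicates lay above both WT samples for 40 genes (81.6%, against 32.1%). The fit of replicates 2 and 3 leaves out WT replicate 1, the highest WT sample for 36 of the 49 genes, which by itself raises the fold change of such genes. It uses part of the same samples, so its calls are not separate support for a difference. With a term that separates replicate 1 from replicates 2 and 3, 4 genes were called higher, Psmb5, Psmb8, Psmd3 and Psmd7 (8.16%, against 7.17%). Leaving out WT replicate 1 gave 27 genes at an unadjusted p under 0.05 in either direction in place of 16, while the share of all genes went from 21.3% to 24.8%. Leaving out WT replicate 2 or 3 gave 7 and 6 genes, with 16.9% and 13.3% of all genes, and leaving out Cul5 cKO replicate 1, 2 or 3 gave 13, 10 and 6 genes, with 22.9%, 16.0% and 12.4% of all genes.

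In the alpha ring, whose tails open and close the channel, 7 of 7 genes had a log2 fold change above 0 (6 on the log2 TPM scales), with a median of 0.15, and 3 were higher at an unadjusted p under 0.05 (10.9% of all genes). Psma3 was at 116, 93.6 and 91.6 CPM in WT replicates 1, 2 and 3 and at 121, 117 and 125 CPM in Cul5 cKO replicates 1, 2 and 3. All Cul5 cKO samples were above all WT samples, with WT replicate 1 near them, and the log2 fold change was 0.27 with an adjusted p of 0.188 over all 6 samples, and 0.38 with an adjusted p of 0.0272 in replicates 2 and 3 alone. A processed pseudogene on chromosome 6, Gm13835, is identical to Psma3 over 685 bases and held 38.8% as many counts, so reads of the pair cannot be told apart with certainty. With the counts of Psma3 and its near-identical copies summed, the log2 fold change was 0.19, the lowest of its values over the alternative fits. At the other end of this ring, Psma1 was at 167, 153 and 153 CPM in WT and at 158, 154 and 169 CPM in Cul5 cKO. These groups overlapped, and the log2 fold change of 0.02 turned to between -0.04 and -0.02 with library size alone, in the study's table and on the log2 TPM scales. Psma7, called in replicates 2 and 3 alone, was at 148, 132 and 128 CPM in WT and at 149, 157 and 163 CPM in Cul5 cKO, without overlap and with the first replicates almost equal (log2 fold change 0.20). Psma5, Psma2, Psma6 and Psma4 had log2 fold changes of 0.17, 0.15, 0.13 and 0.08.

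The beta ring holds the peptidase sites of the core, with the chymotrypsin-like activity in Psmb5, the caspase-like activity in Psmb6 and the trypsin-like activity in Psmb7. All 7 constitutive genes had a log2 fold change above 0, with a median of 0.14. For 5 of them every Cul5 cKO sample lay above every WT sample in CPM (14.0% of all genes). Of these, Psmb4 overlapped in TPM, at 304, 311 and 346 in WT and at 331, 331 and 318 in Cul5 cKO. Psmb5 was at 116, 110 and 113 CPM in WT replicates 1, 2 and 3 and at 129, 129 and 133 CPM in Cul5 cKO replicates 1, 2 and 3, without overlap and with little spread in either group. Its log2 fold change was 0.21 ± 0.058 (SE), with an adjusted p of 0.117. Psmb6 was at 132, 120 and 120 CPM in WT and at 132, 134 and 139 CPM in Cul5 cKO, where Cul5 cKO replicate 1 barely exceeded WT replicate 1, and the log2 fold change was 0.12 (adjusted p = 0.349). Psmb7 was at 164, 138 and 133 CPM in WT and at 163, 149 and 170 CPM in Cul5 cKO. WT replicate 1 fell within the Cul5 cKO range here, and the log2 fold change was 0.14 (adjusted p = 0.442). Psmb7 shares 255 bases of exon with Nek6, which held 45.9% as many counts, so reads of the overlap cannot be assigned with certainty. Of the noncatalytic genes of this ring, Psmb1 was at 191, 165 and 165 CPM in WT and at 192, 178 and 188 CPM in Cul5 cKO, with overlap and the lowest log2 fold change of the ring, 0.10, while Psmb2 and Psmb4 stood at 0.17 and 0.14. Psmb3, called in replicates 2 and 3 alone, was at 174, 148 and 151 CPM in WT and at 178, 176 and 185 CPM in Cul5 cKO, without overlap but with WT replicate 1 close to the Cul5 cKO samples (log2 fold change 0.18).

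Because the structural genes lay on the same side of 0 in the edgeR fit, promoters of the whole set were searched for 4 short motifs on both strands. The window ran from 250 bases before to 50 bases after the RefSeq start. An entry was present for 42 members, structural and other, and the shares below are of these 42. The core of the antioxidant response element, TGACNNNGC, which is the kind of site that Nfe2l1 and Nfe2l2 bind, occurred in 6 members (14.3%: Psmb5, Psmb6, Psmc6, Psmd12, Psmd9 and Psme4) and in 14.0% of 27025 genes. The CCAAT box occurred in 15 (35.7%, against 41.1%), the gamma-activated site core TTCNNNGAA in 3 (7.14%, against 9.55%), among them Psmb8, and the interferon-stimulated response element core GAAANNGAA in 7 (16.7%, against 9.76%), among them Psme1. A match of these letters is not a binding site, and no match says only that the letters are not in the window. The 250 bases before the start of the catalytic genes Psmb5 and Psmb6 are shown 5′ to 3′ on the strand of the gene because both hold TGACNNNGC, in capitals, the first at 47 and the second at 9 bases before the start (RefSeq, GRCm38.p6, chr14:54617996-54618245 on the minus strand and chr11:70525107-70525356 on the plus strand).
Psmb5: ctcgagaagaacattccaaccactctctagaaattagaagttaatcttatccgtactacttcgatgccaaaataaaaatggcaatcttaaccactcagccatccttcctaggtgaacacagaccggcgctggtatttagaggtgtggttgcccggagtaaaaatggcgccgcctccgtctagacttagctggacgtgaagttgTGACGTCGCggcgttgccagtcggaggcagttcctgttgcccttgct
Psmb6: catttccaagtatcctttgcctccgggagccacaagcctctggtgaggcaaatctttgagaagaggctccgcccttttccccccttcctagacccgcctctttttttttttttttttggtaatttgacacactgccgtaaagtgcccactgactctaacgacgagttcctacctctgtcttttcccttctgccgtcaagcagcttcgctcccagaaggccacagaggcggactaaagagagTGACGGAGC

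Of the inducible subunits, Psmb8 and Psmb10 had higher and Psmb9 a slightly lower mean level in Cul5 cKO, and none of them passed the adjusted threshold. Psmb8 was at 275, 231 and 236 CPM in WT replicates 1, 2 and 3 and at 296, 278 and 282 CPM in Cul5 cKO replicates 1, 2 and 3. In CPM, WT replicate 1 was close to the Cul5 cKO samples without reaching them. The log2 fold change was 0.20 (adjusted p = 0.208), which became 0.27 (adjusted p = 0.0436) in replicates 2 and 3 alone. In TPM the groups overlapped, with WT replicate 1 at 455 and Cul5 cKO replicate 3 at 452. With protein-coding transcripts alone, WT replicate 1 was at 300 TPM, above Cul5 cKO replicates 2 and 3 at 288 and 291 TPM. The log2 fold change of Psmb8 was then 0.14. Psmb9 was at 56.7, 48.2 and 53.1 CPM in WT and at 49.8, 53.3 and 51.0 CPM in Cul5 cKO. The groups overlapped fully, and the log2 fold change was -0.04 (adjusted p = 0.835). Psmb10 was at 35.7, 35.0 and 32.4 CPM in WT and at 36.5, 41.4 and 38.4 CPM in Cul5 cKO, without overlap, and its log2 fold change was 0.17 (adjusted p = 0.284).

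Per length, Psmb8 exceeded Psmb5 in every sample. The ratio of their TPM over all transcripts was 1.98, 1.77 and 1.85 in WT replicates 1, 2 and 3 and 1.97, 1.78 and 1.77 in Cul5 cKO replicates 1, 2 and 3. Its mean was 1.86 ± 0.104 in WT and 1.84 ± 0.114 in Cul5 cKO (SD, n = 3 each), and an exact two-sided permutation test gave p = 0.7. With protein-coding transcripts alone the ratio was lower, at 1.30, 1.18 and 1.25 in WT and 1.33, 1.13 and 1.14 in Cul5 cKO. Psmb9 to Psmb6 was 0.240, 0.225 and 0.293 in WT and 0.211, 0.228 and 0.211 in Cul5 cKO, with means of 0.253 ± 0.036 and 0.217 ± 0.010 (exact permutation p = 0.2). The log2 difference of -0.21 turned to 0.22 in the study's gene-level table and to 0.39 when only protein-coding transcripts were summed, an alternative chosen after seeing the data. Psmb10 to Psmb7 was 0.313, 0.359 and 0.354 in WT and 0.318, 0.414 and 0.334 in Cul5 cKO, with means of 0.342 ± 0.025 and 0.355 ± 0.051 (exact permutation p = 0.8). With 3 samples against 3 this test cannot go below 0.1, so the ratios are given as values.

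**Figure D3:**
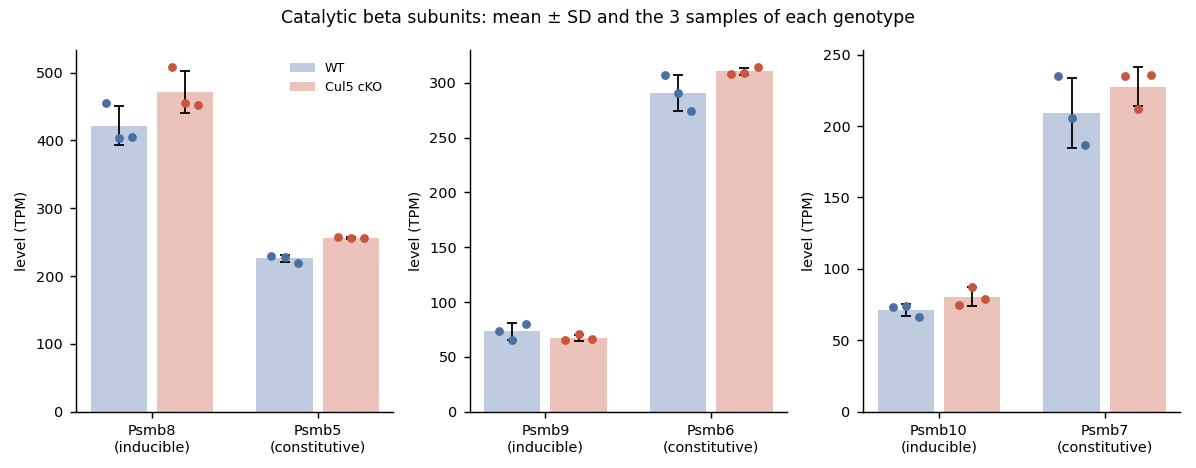
Level in TPM (vertical axis, from 0) of each inducible beta subunit and its constitutive counterpart, with bars for the mean, whiskers for the SD and points for the 3 samples of WT (blue) and Cul5 cKO (red). Psmb8 lies above Psmb5 in both genotypes (421 against 226 TPM in WT), whereas Psmb9 and Psmb10 lie below Psmb6 and Psmb7.

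The Psmb9 value depends on how reads are divided between transcripts. Its coding transcript Psmb9-204 took 63.9% to 76.4% of the counts of the gene in 5 samples and 27.4% in WT replicate 3, the shallowest library, in which a transcript subject to nonsense-mediated decay, Psmb9-207, held 112 counts against 57.5 for Psmb9-204. In the study's table Psmb9 was at 5.70, 5.37 and 4.85 log2 CPM in WT and at 5.54, 5.68 and 5.70 log2 CPM in Cul5 cKO. WT replicate 3 was the lowest sample in that table, where summed counts put it in the middle, and the log2 fold change was 0.33 in place of -0.04. Psmb9 lies on the minus strand of chromosome 17 (34181987 to 34187764, GRCm38). The start of the gene overlaps the start of Tap1, at 34187553 on the plus strand. The transcripts share 212 bases of exon and the strandedness of the libraries is not given in the sources used here, so reads of the overlap cannot be assigned with certainty.

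The ATPases of the 19S base, encoded by Psmc1 to Psmc6, unfold the substrate and thread it into the core. All 6 had a log2 fold change above 0 (4 on the log2 TPM scales), with a median of 0.15. Psmc2 was at 118, 76.1 and 41.0 CPM in WT replicates 1, 2 and 3 and at 103, 111 and 131 CPM in Cul5 cKO replicates 1, 2 and 3. The WT samples alone spanned nearly the whole range, with a coefficient of variation of 49.2%, the highest of the 49 genes, whose median was 6.21% in WT. Its log2 fold change was the highest of the set, 0.52 ± 0.31 (SE), with an adjusted p of 0.384, and it was 0.25 without WT replicate 3 and 0.96 (adjusted p = 0.0579) in replicates 2 and 3 alone. Psmc5 was at 137, 129 and 134 CPM in WT and at 137, 140 and 149 CPM in Cul5 cKO. Cul5 cKO replicate 1 and WT replicate 1 were almost equal, and the log2 fold change, the lowest of the ATPases, was 0.09. Psmc6 was at 146, 123 and 118 CPM in WT and at 140, 148 and 149 CPM in Cul5 cKO. WT replicate 1 lay within the Cul5 cKO range, and the log2 fold change was 0.17, and 0.30 (adjusted p = 0.0351) in replicates 2 and 3 alone. Psmc4, Psmc1 and Psmc3 had log2 fold changes of 0.16, 0.14 and 0.11.

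Among the other base subunits, the scaffold gene Psmd1 was at 298, 287 and 283 CPM in WT and at 323, 323 and 333 CPM in Cul5 cKO. The samples of each genotype lay close together and the groups did not overlap, with a log2 fold change of 0.17 ± 0.054 (SE) and an adjusted p of 0.142. Psmd2, the other scaffold, had a log2 fold change of 0.14. Psmd4, a receptor for ubiquitin chains, was at 136, 141 and 142 CPM in WT and at 137, 141 and 154 CPM in Cul5 cKO. Cul5 cKO replicate 3 was its only sample above the WT range, and the log2 fold change was 0.05.

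The lid contains the deubiquitinase Psmd14 and its partner Psmd7. Of its genes, 8 of 8 had a log2 fold change above 0 (6 on the log2 TPM scales), with a median of 0.16. In CPM, 5 had every Cul5 cKO sample above every WT sample (14.0% of all genes). Of these, Psmd11 overlapped in TPM. It was at 101, 115 and 177 TPM in WT replicates 1, 2 and 3 and at 116, 118 and 124 TPM in Cul5 cKO. Psmd7 was at 169, 161 and 155 CPM in WT replicates 1, 2 and 3 and at 193, 192 and 207 CPM in Cul5 cKO replicates 1, 2 and 3. Every Cul5 cKO sample was above every WT sample, and the log2 fold change was 0.29 ± 0.064 (SE), a difference of 22.3% between group means. Its adjusted p was 0.0872 in the fit over all 6 samples, 0.0183 with DESeq2 and 0.0371 in replicates 2 and 3 alone. Psmd3 was at 288, 299 and 280 CPM in WT and at 319, 343 and 351 CPM in Cul5 cKO, again without overlap, with a log2 fold change of 0.22 (adjusted p = 0.118).

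At the low end of the lid, Psmd13 was at 116, 106 and 96.2 CPM in WT and at 120, 108 and 112 CPM in Cul5 cKO. The groups overlapped, and the log2 fold change of 0.09 turned to between -0.12 and -0.07 in the study's table, with counts scaled from TPM and on the log2 TPM scales. Its main coding transcript, Psmd13-201, held 35.3% to 43.6% of the counts of the gene in 5 samples and 0 in WT replicate 3, and the gene shares 329 bases of exon with Sirt3. Psmd12 was at 137, 128 and 130 CPM in WT and at 144, 151 and 163 CPM in Cul5 cKO, without overlap, with a log2 fold change of 0.21, and 0.28 (adjusted p = 0.0467) in replicates 2 and 3 alone. The genes Psmd8, Psmd11, Psmd14 and Psmd6 had log2 fold changes of 0.18, 0.13, 0.12 and 0.09.

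**Figure D4:**
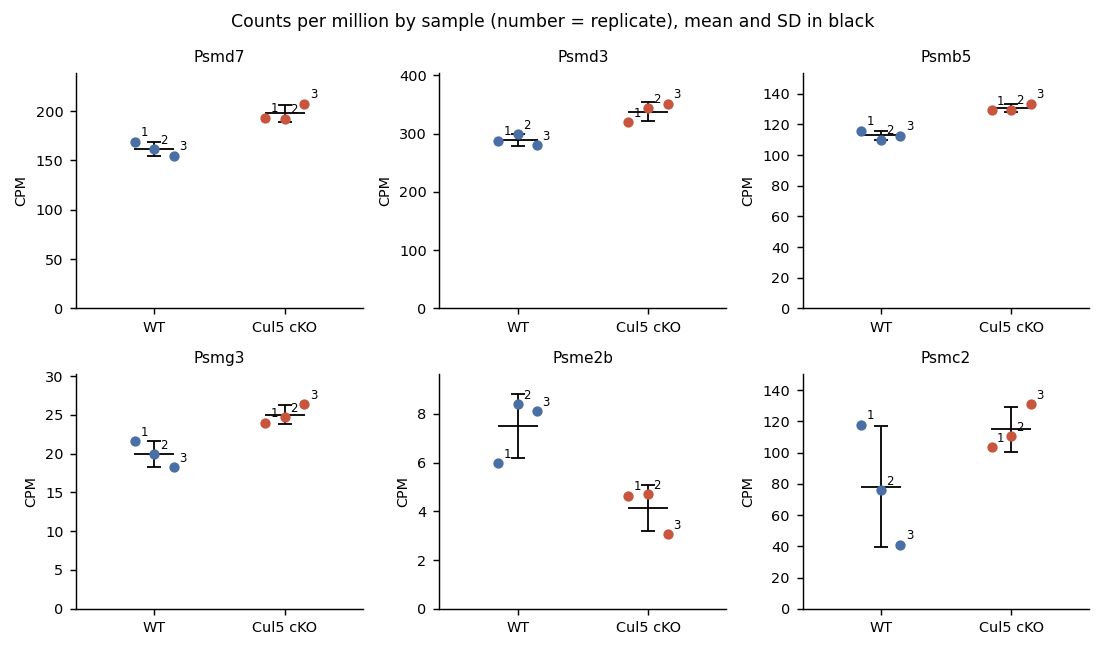
CPM (vertical axis, from 0) in each WT (blue) and Cul5 cKO (red) sample, numbered by replicate, with the mean and SD in black, for 6 genes. Psmd7, Psmd3, Psmb5 and Psmg3 lie higher in every Cul5 cKO sample than in every WT sample, Psme2b lies lower, and the WT samples of Psmc2 spread from 41.0 to 118 CPM.

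Assembly chaperones build the particle and then leave it. All 7 of these genes had a log2 fold change above 0 (6 with library size alone, where Psmg2 was below it, and 6 on the log2 TPM scales, where Psmg1 was), with a median of 0.12. Psmg3, one of the chaperones of the alpha ring, was at 21.6, 19.9 and 18.2 CPM in WT replicates 1, 2 and 3 and at 24.0, 24.7 and 26.4 CPM in Cul5 cKO replicates 1, 2 and 3. The groups did not overlap, and the log2 fold change was 0.31 ± 0.096 (SE), with an adjusted p of 0.139 and of 0.0540 in replicates 2 and 3 alone. Psmg2 was at 38.4, 39.3 and 36.2 CPM in WT and at 37.9, 38.5 and 41.3 CPM in Cul5 cKO, with overlap and a log2 fold change of 0.04, and Psmg4 and Psmg1 had 0.17 and 0.10. Of the chaperones of the 19S base, Psmd5 was at 82.7, 69.1 and 73.6 CPM in WT and at 87.6, 83.4 and 81.2 CPM in Cul5 cKO. WT replicate 1 lay inside the Cul5 cKO range, and the log2 fold change was 0.16 (adjusted p = 0.316). Psmd9 was at 32.8, 32.2 and 35.7 CPM in WT and at 34.0, 37.5 and 37.3 CPM in Cul5 cKO, with overlap and a log2 fold change of 0.12, and Psmd10 also had 0.12.

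The activators open the core without ATP. Psme1 and Psme2 encode the cytoplasmic PA28, which interferon-γ induces, and Psme3 encodes the nuclear form. Psme1 was at 146, 147 and 143 CPM in WT and at 134, 152 and 154 CPM in Cul5 cKO. The Cul5 cKO samples lay on both sides of the WT samples, and the log2 fold change was 0.01 (adjusted p = 0.953), with its sign turning to -0.03 with library size alone and -0.02 on both log2 TPM scales. Psme2 was at 91.0, 85.1 and 82.0 CPM in WT and at 89.9, 91.9 and 96.5 CPM in Cul5 cKO, where WT replicate 1 overlapped the other group, with a log2 fold change of 0.11. Psme3, at 383, 530 and 456 CPM in WT and 430, 525 and 570 CPM in Cul5 cKO, varied as much within each genotype as between them and had a log2 fold change of 0.16 (adjusted p = 0.567). Psme4, whose product PA200 caps the core in the nucleus, was at 160, 158 and 162 CPM in WT and at 165, 149 and 155 CPM in Cul5 cKO. These groups overlapped, with a log2 fold change of -0.03.

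Psme2b was the gene of the set with a lower level in every Cul5 cKO sample. It was at 5.98, 8.39 and 8.10 CPM in WT replicates 1, 2 and 3 and at 4.65, 4.69 and 3.07 CPM in Cul5 cKO replicates 1, 2 and 3, with a log2 fold change of -0.84 ± 0.24 (SE), an adjusted p of 0.122, and -1.09 with an adjusted p of 0.0541 in replicates 2 and 3 alone. The gene, on chromosome 11 (48945354 to 48946190, GRCm38), is 99.4% identical to Psme2, on chromosome 14, over 794 bases, and held 649 counts in all samples together against 10761 for Psme2, so that the division of reads between them is uncertain. With the counts of both genes summed, the log2 fold change was 0.05.

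The remaining genes showed little. Psmf1, for PI31, was at 59.2, 61.2 and 62.5 CPM in WT and at 67.3, 62.3 and 60.7 CPM in Cul5 cKO, with overlap and a log2 fold change of 0.06. Psmc3ip was at 12.1, 10.8 and 10.6 CPM in WT and at 11.03, 9.82 and 12.4 CPM in Cul5 cKO, with a log2 fold change of -0.02, and shares 385 bases of exon with Mlx. Psmb11 was at 0.982, 1.30 and 0.759 CPM in WT and at 0.999, 1.31 and 0.667 CPM in Cul5 cKO. In WT replicate 3 this equals the floor of 3 counts, so that the value of this sample is uncertain. The groups overlapped, and the log2 fold change was -0.10 ± 0.36 (SE).

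Genes that work with the proteasome without being part of its named subunits were taken as a list of 29, of which 28 were found and tested. Their log2 fold change was above 0 for 24 of 28, with a median of 0.14, and 0 were called higher and 0 lower by edgeR at an adjusted p under 0.05 (background 0.611% and 0.418%), with 9 higher and 1 lower, Ngly1, at an unadjusted p under 0.05 (background 10.9% and 10.4%). The lowest p was that of Uba1, the main ubiquitin-activating enzyme, which was at 1497, 1496 and 1429 CPM in WT and at 1765, 1753 and 1734 CPM in Cul5 cKO. Its groups did not overlap in CPM, and the log2 fold change was 0.25 (adjusted p = 0.0687). In TPM they overlapped, with WT replicate 3 at 968 and Cul5 cKO replicate 3 at 938. Adrm1, a ubiquitin receptor of the 19S base, was at 173, 174 and 167 CPM in WT and at 196, 201 and 212 CPM in Cul5 cKO (log2 fold change 0.25, adjusted p = 0.102), and Vcp, the segregase that extracts ubiquitylated proteins, was at 591, 629 and 586 CPM and at 705, 683 and 739 CPM (log2 fold change 0.24, adjusted p = 0.104). Both lay higher in every Cul5 cKO sample, in CPM and in TPM. Pomp, the maturation factor of the core, had 99.1, 89.3 and 84.0 CPM in WT and 100.45, 105 and 112 CPM in Cul5 cKO, without overlap but with Cul5 cKO replicate 1 close to WT replicate 1, with a log2 fold change of 0.22 (adjusted p = 0.194). In TPM the groups of Pomp overlapped. Nfe2l1 was at 69.2, 93.4 and 94.4 CPM in WT and at 85.6, 101 and 109 CPM in Cul5 cKO, with overlap and a log2 fold change of 0.21 (adjusted p = 0.433). In replicates 2 and 3 alone 5 genes of the list were called higher (background 4.38%), Adrm1, Pomp, Usp14, Ubb and Uba1.

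The genes of interferon signalling and antigen presentation, which share inducers with the immunoproteasome, did not lie on one side. Of 10 tested, 6 had a log2 fold change above 0 (48.8% of all genes), with a median of 0.04. By edgeR, 0 were called higher and 0 lower at an adjusted p under 0.05 (background 0.611% and 0.418%). At an unadjusted p under 0.05, 0 were higher and 2 lower (background 10.9% and 10.4%). Tapbp, which holds MHC class I at the peptide transporter, was at 137, 136 and 150 CPM in WT and at 109, 108 and 93.6 CPM in Cul5 cKO. All Cul5 cKO samples were below all WT samples, the log2 fold change was -0.45, and the adjusted p was 0.0599 over the 6 samples and 0.0318 in replicates 2 and 3 alone. Irf1, Tap1 and Tap2, with log2 fold changes of -0.05, 0.07 and 0.07, overlapped between the groups.

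At the level of transcripts, 48 of the 49 genes had a protein-coding transcript as the one with the most counts, the exception being Psma3, whose Psma3-203 is annotated as a retained intron and took 40.0% to 43.9% of its counts in every sample. A retained-intron transcript of Psmb8, Psmb8-205, held 2429, 1851 and 327 counts in WT replicates 1, 2 and 3 and 2527, 2507 and 2486 counts in Cul5 cKO replicates 1, 2 and 3. The shallow WT replicate 3 was lowest, and WT replicate 2 was below WT replicate 1 and the Cul5 cKO samples. For Psmb10, the retained-intron transcript Psmb10-204 was counted at 20.02, 52.6 and 20.11 in WT and at 0.012, 0 and 0 in Cul5 cKO, whereas Psmb10-202 was counted at 0, 0 and 0 in WT and at 26.7, 39.1 and 29.2 in Cul5 cKO. These transcripts were seen in one genotype each, at counts that are estimates for overlapping models of one gene, and no test was run on them. The number of members with a log2 fold change above 0 was again 44 when protein-coding transcripts alone were summed, with a median of 0.14.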

How the data were processed

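The authors sequenced poly-A RNA of 6 samples in single-end reads of 50 bases, and the submitters' processing notes name kallisto 0.46.2, edgeR 3.34.0 and GRCm38. They deposited estimated counts and TPM for 119414 transcripts in each sample, not normalized beyond TPM itself, and log2 CPM after TMM normalization in a table by gene, which also holds the authors' log2 fold change and p-value for each gene. These last columns were not used. The strandedness of the libraries is not given in the sources used here.

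Transcripts were summed by gene with GENCODE vM21 (97.7% matched), rounded and fitted with edgeR 4.0.16 in R 4.3.3 (filterByExpr, TMM, quasi-likelihood test, Benjamini-Hochberg adjustment over 12925 genes). The common biological coefficient of variation was 16.1%. Depth ranged from 3944803 to 23454552 counts, where 3 counts equal 0.759 CPM in WT replicate 3 and 0.128 to 0.133 CPM in the others, which covers counting error only. Ratios of TPM were compared by an exact permutation test. DESeq2 1.42.0, limma 3.58.1 and blastn 2.17.0 (near-identical copies, at least 95% over 150 bases) served for alternatives, and the fits were tested on simulated data. Tables were handled in Python 3.11.15.

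Values in every sample are given for the inducible subunits and their counterparts, Psme1 and Psme2, members called, the 5 members with the lowest p, and the highest and lowest log2 fold change of each subcomplex. Of the other lists, genes called, the 3 with the lowest p, Nfe2l1, Pomp, Tap1, Tap2 and Irf1 are named, and 1 further gene is not reported here. The other genes were named after their values were seen. The members and lists were chosen with earlier results of these data known. Promoters of Psmc3, Psmb1, Psmb2, Psmd3, Psmb7, Psmg2 and Psmd7 were not analysed here.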

Additional observations from a re-analysis of the deposited data

How the results depend on the processing

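The number of proteasome genes called higher in Cul5 cKO, 0 by edgeR, was 1 with DESeq2, 4 with a term separating replicate 1 from the others, 7 in replicates 2 and 3 alone and 0 to 1 when a sample was left out. The number at an unadjusted p under 0.05, 16, was 7 with library size alone, 6 with counts scaled from TPM, 6 with limma on the gene-level table, 5 with limma on log2(TPM + 1), 5 on log2(TPM + 0.1), 30 in replicates 2 and 3 alone, 9 with the other libraries thinned to WT replicate 3 and 6 to 27 with each sample left out. The number called lower was 0 in all fits. Over all genes, those higher and lower at an unadjusted p under 0.05 were 999 and 1687 of 12925 with library size alone. They were 960 and 1075 of 12972 with counts scaled from TPM and 882 and 934 of 11242 with the gene-level table. On log2(TPM + 1) and log2(TPM + 0.1) they were 708 and 1210, and 701 and 1222, of 12925. After thinning they were 993 and 1018 of 10454. Of the members with such a p, 1 was lower in each of these fits. The log2 difference of the Psmb8 to Psmb5 ratio, -0.02, ran from -0.069 to 0.024 and that of Psmb10 to Psmb7, 0.05, from -0.067 to 0.12 with each sample left out, and that of Psmb9 to Psmb6, -0.21, was 0.22 in the gene-level table and 0.39 with protein-coding transcripts only.
Among the named genes, 34 values changed sign, 515 kept their direction and their side of the threshold and 9 passed it where the 6 samples together did not. Psmb9 was at 0.33 in the gene-level table, 0.060 in replicates 2 and 3 alone and 0.31 with protein-coding transcripts only, and at -0.10 to 0.034 with each sample left out. Psme1 was at -0.033 with library size alone, -0.016 on log2(TPM + 1), -0.016 on log2(TPM + 0.1), -0.013 with protein-coding transcripts and -0.022 to 0.073 with each sample left out. Psma1 was at -0.023 with library size alone, -0.024 in the gene-level table, -0.042 on log2(TPM + 1), -0.042 on log2(TPM + 0.1), -0.0093 with protein-coding transcripts and -0.017 to 0.070 with each sample left out. Psmd13 was at -0.070 with counts scaled from TPM, -0.10 in the table, -0.12 on log2(TPM + 1) and -0.12 on log2(TPM + 0.1). Psmc3ip was at 0.050 in replicates 2 and 3 alone, 0.20 with protein-coding transcripts and -0.11 to 0.066 with each sample left out. Psmb11 was at 0.016 in the table and at -0.35 to 0.13 with each sample left out, and had no value with a minimum of 10 counts or after thinning. Psmf1 was at -0.0017 in replicates 2 and 3 alone and -0.026 after thinning, Psmg2 at -0.0037 with library size alone, Psme2b at 0.049 with its copy summed, and Psme4 at -0.069 to 0.0045 with each sample left out. The causes were not tested.
With the replicate number as a block, 0 of the 49 genes were called and 15 had an unadjusted p under 0.05. Over all 12925 genes, that fit called 453 higher and 395 lower, where the fit without the block called 79 and 54. At an unadjusted p under 0.05 it had 1861 of all genes higher and 1683 lower, beside 14 and 1 of the members. Same-numbered samples deviated together over all genes with r of 0.37, 0.206 and 0.0245 for numbers 1, 2 and 3. Differently numbered pairs ran from -0.333 to 0.201, so number 1 stood above them and number 3 lay among them. Over the members alone, r was -0.0652, 0.665 and -0.0549 for numbers 1, 2 and 3. Some same-numbered samples thus shared deviations, and the source of these was not tested. No pairing was assumed, since the labels do not state one. WT replicate 3, with 3944803 counts, limits low genes such as Psmb11 and Psme2b. Its division of reads between transcripts also differed in some well expressed genes. The main transcript held 70.4% of the counts of Psma1 there and 93.7% to 98.3% in the other samples. For Psmb4 these shares were 58.9% and 87.1% to 90.9%, and for Psmc6 56.1% and 79.2% to 82.9%. That of Psmd7 was 99.4% to 99.6% in every sample. Whether this division moved the TPM values was not tested.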
